A study of Haemulon flavolineatum and Haemulon macrostomum and Haemulon carbonarium with 36 samples.

Results

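Solute carriers and aquaporins are the proteins that move small molecules and water across cell membranes, and 28 of their transcripts were measured in livers of 3 grunt species. They were chosen by name: isogroups, which are clusters of assembled isoforms, whose protein name contains solute carrier, aquaporin, organic cation/carnitine transporter or glucose transporter, and which had at least 10 counts over all fish. The names came from the study's list of differentially expressed transcripts and from the part of the *H. macrostomum* annotation at hand. Of 41 isogroups with such a name, 35 were in the count table and 28 reached 10 counts, out of 36603 isogroups that did. The livers came from untreated wild fish that divers speared in the same archipelago, with sex and age not given in the labels. The study states that most *H. macrostomum* were taken on outer reefs, with stronger currents and waves than for the other species. Species and collection site can therefore not be fully told apart. There were 8 *H. carbonarium*, 17 *H. flavolineatum* and 11 *H. macrostomum*, and each fish had its own TagSeq library. TagSeq makes a single tag near the 3′ end of a transcript. Counts then do not grow with transcript length, and levels of different isogroups can be set side by side, although an isogroup can be a fragment of its gene. Reads of all 3 species were mapped to the transcriptome of *H. macrostomum*. A low count in another species can therefore come from sequence difference as well as from less transcript, and the part of sequence difference in the results was not tested.

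Solute carriers are grouped into families by sequence, and members of a family often differ in what they carry. In the liver they bring in carnitine, fatty acids, amino acids, sugars, choline and organic ions from the blood, and a family in the inner mitochondrial membrane passes metabolites on to the mitochondrion. Aquaporins are channels for water, and aquaporin-8 is known from mammalian hepatocytes, where it also passes ammonia and hydrogen peroxide. The substrates given here are those known from mammals, and the names of the isogroups rest on sequence similarity.

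Depth was similar between species, with median counts per library of 1523535.5 in *H. carbonarium*, of 1507930 in *H. flavolineatum* and of 1690551 in *H. macrostomum*, and single libraries lay between 578011 and 3252882 over the 36 fish. Levels are in CPM, the usual counts-per-million unit, relative to the TMM-scaled total of the 8598 isogroups that passed the count filter. The 11 isogroups of liver markers (fibrinogens and apolipoproteins) summed to 26798 to 44231 CPM in *H. carbonarium*, 8797 to 32346 CPM in *H. flavolineatum* and 25972 to 48048 CPM in *H. macrostomum*. The 11 isogroups of exocrine pancreas enzymes summed to 9508 to 59376 CPM in *H. carbonarium*, 1891 to 16593 CPM in *H. flavolineatum* and 391 to 8634 CPM in *H. macrostomum*. Their part in the levels below was not tested. Vitellogenin, the egg yolk precursor made by the liver, summed to at least 33725 CPM in *H. flavolineatum* fish 3, 10, 12, 13, 14 and 18, and to at most 1673 CPM in the other 30 fish. Hemoglobin could not be checked as a marker of blood, since no isogroup with that name was among the names at hand, which cover only some of the isogroups. In bulk liver, fewer cells of a type and less RNA per cell cannot be told apart.

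Of the 28 isogroups, 15 passed the count filter and were tested, and 13 lay below it. All 15 are on the study's list, which holds only transcripts that the study called on these same fish, so that the number of calls among them is fixed in part by how they were found and is not independent evidence. With differentially expressed genes (DEGs) taken at an adjusted p under 0.01 in edgeR's quasi-likelihood test, 10 of the 15 were DEGs in *H. carbonarium* relative to *H. flavolineatum*, beside 14.4% of all tested isogroups. In *H. carbonarium* 8 were higher (7.85% of all) and 2 lower (6.55% of all). In *H. carbonarium* relative to *H. macrostomum* 1 of the 15 was a DEG, beside 13.5% of all, with 1 higher (6.08% of all) and 0 lower (7.41% of all). In *H. flavolineatum* relative to *H. macrostomum* 13 were DEGs, beside 26% of all, with 3 higher (11.6% of all) and 10 lower (14.4% of all). The test over the 3 species called 13 of 15, where 32.6% of all were called. The 3 comparisons share fish, so they are not separate lines of evidence.

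The median log2 fold change of the 15 was 1.28 for *H. carbonarium* relative to *H. flavolineatum*, 0.09 for *H. carbonarium* relative to *H. macrostomum* and -1.20 for *H. flavolineatum* relative to *H. macrostomum*, beside medians of -0.05, 0.0007 and 0.04 over all tested isogroups. A positive value stands for a higher level in the first species of the pair. Since all 15 are on the study's list, these medians too depend in part on how the isogroups were found. Summed over the 28 isogroups, *H. carbonarium* had 576 to 731 CPM with a median of 635, *H. flavolineatum* 313 to 492 CPM with a median of 371, and *H. macrostomum* 596 to 905 CPM with a median of 749. Every *H. flavolineatum* lay below every fish of the other species in this sum. Of the 28, 19 were named only in the study's list, so the sum depends on that choice as well. The liver marker sum, mostly apolipoprotein A-I, also had its lowest median in *H. flavolineatum*. Its medians were 36626 CPM in *H. carbonarium*, 21554 CPM in *H. flavolineatum* and 34563 CPM in *H. macrostomum*, and its part in the sum of the 28 was not tested. SLC2A2, SLC38A5 and SLC22A6 made up 50.3% to 67.4% of the sum in *H. carbonarium*, 38.9% to 69.8% of it in *H. flavolineatum* and 57.7% to 77.6% of it in *H. macrostomum*.

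**Figure D1:**
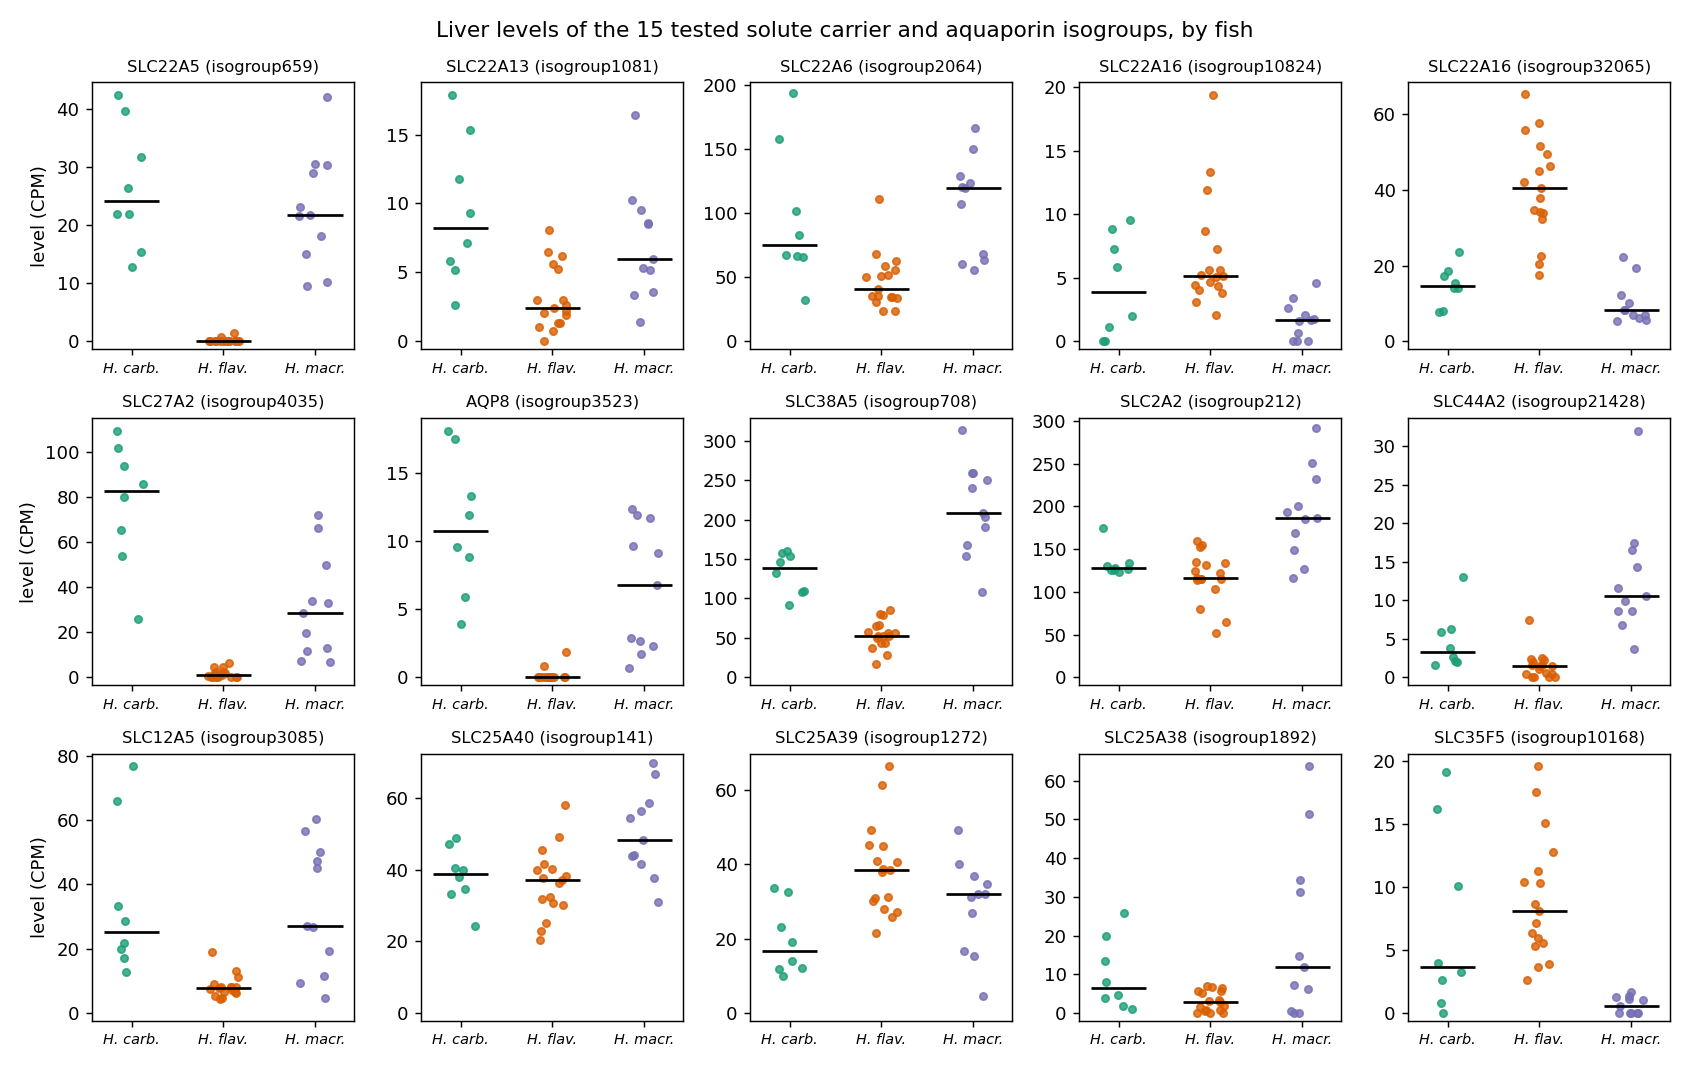
Level of each of the 15 tested isogroups in CPM (vertical axis, a linear scale of its own in each panel), with 1 point per fish and the median as a line, for 8 *H. carbonarium*, 17 *H. flavolineatum* and 11 *H. macrostomum*. SLC22A5, SLC27A2 and AQP8 (isogroup3523) lie at or near 0 in *H. flavolineatum*, while both SLC22A16 isogroups have their highest median there.

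The carriers of carnitine and of organic ions held 5 tested isogroups, all of family 22. In *H. flavolineatum* relative to *H. macrostomum* 3 of them were lower and 2 higher. SLC22A5 (isogroup659) is the sodium-dependent carnitine transporter, which supplies cells with the carnitine that long-chain fatty acids need to enter mitochondria. It had a lowest, median and highest level of 12.7, 24.2 and 42.4 CPM in *H. carbonarium*, 0, 0 and 1.49 CPM in *H. flavolineatum*, and 9.54, 21.8 and 42.0 CPM in *H. macrostomum*. In *H. flavolineatum* only fish 14 and 17 had a count, 1 each, and every fish of the other species lay above all 17. There were 310 counts in *H. carbonarium*, 2 counts in *H. flavolineatum* and 459 counts in *H. macrostomum*. Per total count of the species this is a ratio of 333 for *H. carbonarium* over *H. flavolineatum* (exact 95% counting interval 91.5 to 2764) and of 301 for *H. macrostomum* over *H. flavolineatum* (82.8 to 2493). The edgeR adjusted p was 1.34e-17 for *H. carbonarium* relative to *H. flavolineatum* and 9.15e-18 for *H. flavolineatum* relative to *H. macrostomum*. Isogroup659 passed the count filter only through the species where it is high. These p-values therefore depend in part on how it came to be tested. The fitted log2 fold changes, 7.36 (SE 0.40) and -7.14 (SE 0.39), depend on the prior count at so few reads. *H. carbonarium* and *H. macrostomum* differed by a log2 fold change of 0.22, with a 95% interval of -0.33 to 0.77 and an adjusted p of 0.633 in edgeR.

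SLC22A16 is a carnitine transporter known from human testis, and it was represented by 2 isogroups that both had their highest level in *H. flavolineatum*. Isogroup32065 had 7.85, 14.8 and 23.6 CPM (lowest, median, highest) in *H. carbonarium*, 17.6, 40.5 and 65.4 CPM in *H. flavolineatum*, and 5.29, 8.38 and 22.2 CPM in *H. macrostomum*. The range of *H. flavolineatum* overlapped those of the other species only at its low end, while *H. carbonarium* and *H. macrostomum* overlapped over most of their ranges. The log2 fold change was -1.44 (SE 0.27, edgeR adjusted p 8.25e-05) for *H. carbonarium* relative to *H. flavolineatum* and 1.97 (SE 0.24, adjusted p 2.00e-08) for *H. flavolineatum* relative to *H. macrostomum*. Isogroup10824 was lower throughout, with 0, 3.91 and 9.59 CPM in *H. carbonarium*, 2.04, 5.18 and 19.4 CPM in *H. flavolineatum*, and 0, 1.68 and 4.63 CPM in *H. macrostomum*. Only *H. flavolineatum* relative to *H. macrostomum* passed the threshold for it, with a log2 fold change of 1.89 (SE 0.48, edgeR adjusted p 0.00179). With the counts of both isogroups summed, the log2 fold changes were -1.30 (SE 0.25) for *H. carbonarium* relative to *H. flavolineatum* and 1.98 (SE 0.23) for *H. flavolineatum* relative to *H. macrostomum*. Thus the 2 carnitine carriers of family 22 had opposite orders in *H. flavolineatum*, with SLC22A5 nearly without counts and SLC22A16 at its highest level.

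The organic anion carriers of the same family were lower in *H. flavolineatum*. SLC22A6 (isogroup2064), an exchanger of organic anions best known from the mammalian kidney, had 32.2, 75.0 and 194 CPM (lowest, median, highest) in *H. carbonarium*, 23.5, 41.0 and 111 CPM in *H. flavolineatum*, and 55.8, 120 and 167 CPM in *H. macrostomum*. The ranges overlapped, and *H. carbonarium* spread the most, with a 6.02-fold span between its lowest and highest fish. Its log2 fold change was 1.02 (SE 0.26, edgeR adjusted p 0.00324) for *H. carbonarium* relative to *H. flavolineatum* and -1.16 (SE 0.24, adjusted p 1.57e-04) for *H. flavolineatum* relative to *H. macrostomum*. The first of these lost the call without *H. carbonarium* fish 3 (edgeR adjusted p 0.0171) or fish 8, and also without the 6 *H. flavolineatum* with vitellogenin (adjusted p 0.0115), where the log2 fold change was 1.04. SLC22A13 (isogroup1081), a carrier of urate and nicotinate in mammals, had 2.66, 8.22 and 17.9 CPM in *H. carbonarium*, 0, 2.42 and 8.07 CPM in *H. flavolineatum*, and 1.39, 5.95 and 16.4 CPM in *H. macrostomum*. Its ranges overlapped in all pairs of species. The difference, as a log2 fold change, was 1.56 (SE 0.39, edgeR adjusted p 0.00251) for *H. carbonarium* relative to *H. flavolineatum*, and the adjusted p was 0.0131 without *H. carbonarium* fish 7. For *H. flavolineatum* relative to *H. macrostomum* it was -1.20 (SE 0.36, adjusted p 0.00724), a call that was lost in 11 of 36 fits that left out 1 fish, with an adjusted p of at most 0.0280. Those were the fits without *H. flavolineatum* fish 4, 5, 7, 8, 11 or 16 and without *H. macrostomum* fish 1, 2, 4, 8 or 11.

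Fatty acid uptake was represented by SLC27A2, a protein that takes up fatty acids and also joins very long chains to coenzyme A. The tested isogroup4035 had 25.9, 82.7 and 109 CPM (lowest, median, highest) in *H. carbonarium*, 0, 0.89 and 6.21 CPM in *H. flavolineatum*, and 6.93, 28.5 and 71.9 CPM in *H. macrostomum*. Every *H. flavolineatum* lay below every fish of the other species, and 7 of the 17 had no count. Isogroup4035 passed the count filter only through the species where it is high. The p-values of its comparisons with *H. flavolineatum* therefore depend in part on how it came to be tested. Its log2 fold change was 5.61 (SE 0.49, edgeR adjusted p 6.64e-12) for *H. carbonarium* relative to *H. flavolineatum* and -4.30 (SE 0.47, adjusted p 1.18e-09) for *H. flavolineatum* relative to *H. macrostomum*. Without the 6 *H. flavolineatum* with vitellogenin these became 6.43 and -5.09. *H. carbonarium* relative to *H. macrostomum* gave 1.31 (SE 0.46, edgeR adjusted p 0.0333), which did not pass the threshold. A further isogroup with the same name, isogroup15354, had 19 counts in *H. carbonarium*, 1 count in *H. flavolineatum* and 22 counts in *H. macrostomum*. *H. carbonarium* fish 4 held 14 of the 19, and without it 5 remained and the call against *H. flavolineatum* was lost (log2 fold change 2.28, edgeR adjusted p 0.0789 without the count filter, beside 3.75 and 2.25e-04 over all fish). For *H. flavolineatum* relative to *H. macrostomum* it was -3.48 (SE 0.74, edgeR adjusted p 1.92e-04 without the count filter). The fit without *H. carbonarium* fish 4 gave -3.52 (SE 0.70, edgeR adjusted p 5.98e-05) for that pair. It left out no fish of either species compared, so it hardly tests this call, which rests on 1 count against 22. With the 2 isogroups summed the log2 fold changes were 5.61 (*H. carbonarium* relative to *H. flavolineatum*), 1.28 (*H. carbonarium* relative to *H. macrostomum*) and -4.33 (*H. flavolineatum* relative to *H. macrostomum*).

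Water channels were represented by 2 isogroups named aquaporin-8, whose counts lay in different species. The first of them, isogroup3523, had 3.92, 10.8 and 18.1 CPM (lowest, median, highest) in *H. carbonarium*, 0, 0 and 1.86 CPM in *H. flavolineatum*, and 0.70, 6.79 and 12.3 CPM in *H. macrostomum*. In *H. flavolineatum* only fish 3 and 12 had counts, 3 in all, while every fish of the other species had some. The range of *H. flavolineatum* overlapped that of *H. macrostomum* but not that of *H. carbonarium*. The ratio per total count of the species was 97.5 for *H. carbonarium* over *H. flavolineatum* (exact 95% counting interval 32.7 to 479) and 51.1 for *H. macrostomum* over *H. flavolineatum* (17.1 to 252). The edgeR adjusted p was 2.34e-11 for *H. carbonarium* relative to *H. flavolineatum* and 5.68e-10 for *H. flavolineatum* relative to *H. macrostomum*. Isogroup3523 passed the count filter through the species where it is high. In fits to the 2 species of a comparison alone it was not tested in either comparison with *H. flavolineatum*. These p-values therefore depend in part on how it came to be tested. The fitted log2 fold changes of 5.82 and -5.02 became 6.48 and -5.67 without *H. flavolineatum* fish 3, and 7.24 and -6.40 without the 6 fish with vitellogenin, which include both fish with counts. *H. carbonarium* relative to *H. macrostomum* gave a log2 fold change of 0.81 (SE 0.39, edgeR adjusted p 0.140), which did not pass the threshold.

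Isogroup31837, below the count filter, had 2 counts in *H. carbonarium*, 68 counts in *H. flavolineatum* and 0 counts in *H. macrostomum*. With a floor of 3 counts put in place of the 0 of *H. macrostomum*, the level in *H. flavolineatum* was 17.3-fold higher. The exact 95% counting interval of the ratio without the floor, from 68 against 0 counts, starts at 13.7. Relative to *H. carbonarium* the level was 15.8 times as high (exact 95% counting interval 4.21 to 133). It was detected in 10 of 17 *H. flavolineatum*, at up to 24.8 CPM in fish 10, 11.8 CPM in fish 11 and 9.19 CPM in fish 13. The fish with vitellogenin transcripts, 3, 10, 12, 13, 14 and 18, were all among the 10, and the part of egg production in this level was not tested. Summed over both isogroups, aquaporin-8 averaged 11.5 CPM in *H. carbonarium*, 3.81 CPM in *H. flavolineatum* and 6.53 CPM in *H. macrostomum*. Neither call of isogroup3523 held for the sum: the log2 fold change was 1.74 (SE 0.61, edgeR adjusted p 0.0346) for *H. carbonarium* relative to *H. flavolineatum* and -0.90 (SE 0.59, adjusted p 0.230) for *H. flavolineatum* relative to *H. macrostomum*.

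**Figure D2:**
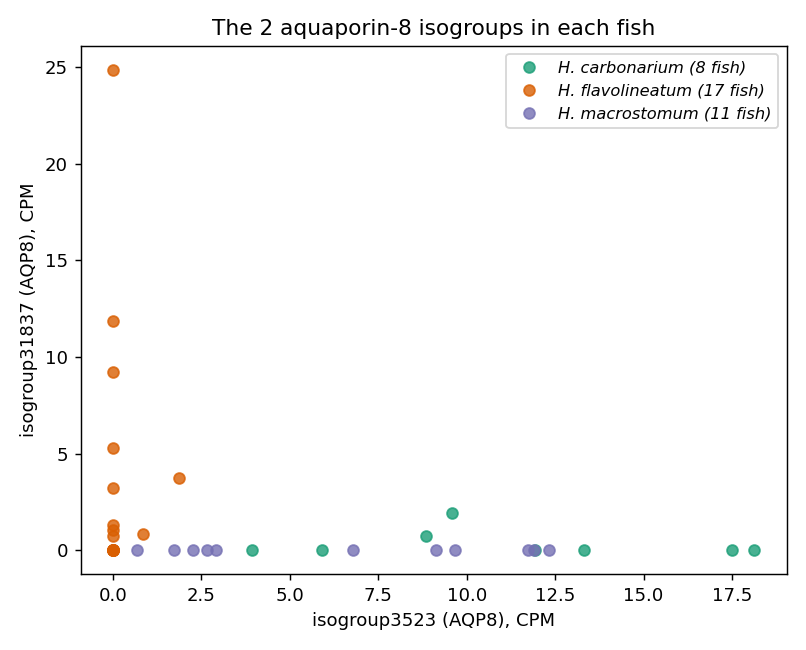
Level of isogroup3523 (horizontal axis, CPM) against isogroup31837 (vertical axis, CPM), both named aquaporin-8, with 1 point per fish for 8 *H. carbonarium*, 17 *H. flavolineatum* and 11 *H. macrostomum*. *H. flavolineatum* lies along the vertical axis up to 24.8 CPM, and *H. macrostomum*, with 0 counts of isogroup31837, along the horizontal axis.

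Amino acid uptake was represented among the tested isogroups by SLC38A5 (isogroup708), a sodium-coupled carrier of glutamine and other neutral amino acids, which was 1 of the 3 most abundant members. It had 92.1, 139 and 160 CPM (lowest, median, highest) in *H. carbonarium*, 16.2, 52.8 and 85.2 CPM in *H. flavolineatum*, and 108, 208 and 314 CPM in *H. macrostomum*. Every *H. flavolineatum* lay below every fish of the other species. On the log2 scale the fold change was 1.28 (SE 0.20, edgeR adjusted p 4.15e-06) for *H. carbonarium* relative to *H. flavolineatum* and -1.98 (SE 0.18, adjusted p 2.27e-11) for *H. flavolineatum* relative to *H. macrostomum*. *H. carbonarium* relative to *H. macrostomum* gave -0.69 (SE 0.23, edgeR adjusted p 0.0226), which did not pass the threshold. A further isogroup that is SLC38A5 by its protein name, sodium-coupled neutral amino acid transporter 5 (isogroup692), ran the other way in *H. flavolineatum*, with medians of 9.37 CPM in *H. carbonarium*, 13.3 CPM in *H. flavolineatum* and 6.85 CPM in *H. macrostomum*. It was much less abundant, and its log2 fold change for *H. flavolineatum* relative to *H. macrostomum* was 1.40 (SE 0.31, edgeR adjusted p 4.92e-04).

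Glucose transport was represented by SLC2A2 (isogroup212), the carrier through which hepatocytes take up and release glucose. It had 123, 127 and 174 CPM (lowest, median, highest) in *H. carbonarium*, 52.2, 117 and 159 CPM in *H. flavolineatum*, and 116, 186 and 291 CPM in *H. macrostomum*. The ranges of all 3 species overlapped. Only *H. flavolineatum* relative to *H. macrostomum* passed the threshold, with a log2 fold change of -0.70 (SE 0.16, edgeR adjusted p 4.65e-04). *H. carbonarium* relative to *H. flavolineatum* gave 0.19 with a 95% interval of -0.16 to 0.53, and *H. carbonarium* relative to *H. macrostomum* gave -0.52 (SE 0.19, edgeR adjusted p 0.0506).

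Choline uptake was represented by SLC44A2 (isogroup21428), a choline transporter-like protein. It had 1.65, 3.25 and 13.02 CPM (lowest, median, highest) in *H. carbonarium*, 0, 1.45 and 7.47 CPM in *H. flavolineatum*, and 3.71, 10.6 and 32.1 CPM in *H. macrostomum*. *H. macrostomum* was highest, and the ranges overlapped in all pairs. Its log2 fold change was -3.13 (SE 0.40, edgeR adjusted p 3.87e-08) for *H. flavolineatum* relative to *H. macrostomum* and 1.71 (SE 0.47, adjusted p 0.00630) for *H. carbonarium* relative to *H. flavolineatum*. The call between *H. carbonarium* and *H. flavolineatum* was lost without *H. carbonarium* fish 2, 4 or 5, with a log2 fold change of 1.27 and an edgeR adjusted p of 0.0598 without fish 4, and without the 6 *H. flavolineatum* with vitellogenin (log2 fold change 1.89, adjusted p 0.0136). *H. carbonarium* relative to *H. macrostomum* gave -1.42 (SE 0.44, edgeR adjusted p 0.0164), which did not pass the threshold. An isogroup named choline transporter protein 2 (isogroup919), a name also used for SLC44A2, was instead lowest in *H. macrostomum*, with medians of 9.04 CPM in *H. carbonarium*, 7.47 CPM in *H. flavolineatum* and 4.55 CPM in *H. macrostomum*. Its log2 fold change was 1.17 (SE 0.26, edgeR adjusted p 9.59e-04) for *H. carbonarium* relative to *H. macrostomum* and 0.82 (SE 0.23, adjusted p 0.00423) for *H. flavolineatum* relative to *H. macrostomum*.

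Inorganic ion transport was represented by isogroup3085, a potassium-chloride cotransporter named SLC12A5 in the study's list and SLC12A7 in the UniProt match of the same isogroup. It had 12.7, 25.2 and 77.0 CPM (lowest, median, highest) in *H. carbonarium*, 4.48, 7.84 and 19.0 CPM in *H. flavolineatum*, and 4.77, 27.1 and 60.4 CPM in *H. macrostomum*. *H. flavolineatum* had the lowest median, and its range overlapped both others. In edgeR the log2 fold change was 2.09 (SE 0.33, adjusted p 6.03e-06) for *H. carbonarium* relative to *H. flavolineatum* and -1.995 (SE 0.31, adjusted p 1.82e-06) for *H. flavolineatum* relative to *H. macrostomum*, and 0.09 with a 95% interval of -0.60 to 0.79 for *H. carbonarium* relative to *H. macrostomum*.

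Of the 3 tested carriers of the mitochondrial inner membrane, SLC25A38 and SLC25A40 had their highest median in *H. macrostomum* and SLC25A39 had it in *H. flavolineatum*. SLC25A38 (isogroup1892), which brings glycine into mitochondria for heme synthesis, had 1.18, 6.36 and 26.0 CPM (lowest, median, highest) in *H. carbonarium*, 0, 2.97 and 7.10 CPM in *H. flavolineatum*, and 0, 11.9 and 63.7 CPM in *H. macrostomum*. It varied more between fish of a species than any other tested member, with a coefficient of biological variation of 1.02, beside a median of 0.52 over the 15 members and 0.43 over all tested isogroups. In *H. macrostomum* fish 2 and 11 had no count and fish 7 and 8 had 63.7 and 51.4 CPM. The log2 fold change was -2.73 (SE 0.58, edgeR adjusted p 2.22e-04) for *H. flavolineatum* relative to *H. macrostomum*, and 1.74 (SE 0.65, adjusted p 0.0455) for *H. carbonarium* relative to *H. flavolineatum*.

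SLC25A39 (isogroup1272), which brings glutathione into mitochondria, had 10.1, 16.6 and 33.8 CPM (lowest, median, highest) in *H. carbonarium*, 21.5, 38.5 and 66.6 CPM in *H. flavolineatum*, and 4.53, 32.0 and 49.3 CPM in *H. macrostomum*. It was lower in *H. carbonarium* than in *H. flavolineatum*, with a log2 fold change of -0.99 (SE 0.28, edgeR adjusted p 0.00842). This call stood close to the threshold and was lost in 23 of 36 fits that left out 1 fish, with a highest adjusted p of 0.0307 without *H. carbonarium* fish 4. Those were the fits without *H. carbonarium* fish 1, 2, 3, 4, 6 or 8, *H. flavolineatum* fish 2, 4, 5, 6, 7, 8, 11, 15, 16 or 17, and *H. macrostomum* fish 1, 2, 3, 5, 7, 8 or 9. Its paralog SLC25A40 (isogroup141) was a DEG in no comparison, at 24.4 to 48.9 CPM in *H. carbonarium*, 20.5 to 58.2 CPM in *H. flavolineatum* and 31.1 to 69.9 CPM in *H. macrostomum*. Without the 6 *H. flavolineatum* with vitellogenin it became one for *H. flavolineatum* relative to *H. macrostomum*, with a log2 fold change of -0.65 (SE 0.17, edgeR adjusted p 0.00275), beside -0.46 (SE 0.16, adjusted p 0.0168) over all fish.

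SLC35F5 (isogroup10168), of a family that includes nucleotide sugar carriers, was low in *H. macrostomum*, the species whose transcriptome was the reference. It had 0, 3.64 and 19.2 CPM (lowest, median, highest) in *H. carbonarium*, 2.66, 8.13 and 19.6 CPM in *H. flavolineatum*, and 0, 0.57 and 1.71 CPM in *H. macrostomum*. Every *H. flavolineatum* lay above every *H. macrostomum*, while *H. carbonarium* spread over both ranges. Its log2 fold change was 3.04 (SE 0.59, edgeR adjusted p 1.61e-04) for *H. carbonarium* relative to *H. macrostomum*, the single DEG among the tested members there. For *H. flavolineatum* relative to *H. macrostomum* it was 3.54 (SE 0.52, adjusted p 8.26e-07). Isogroup10168 passed the count filter through the species where it is high. In the fit to *H. carbonarium* and *H. macrostomum* alone it was not tested. These p-values therefore depend in part on how it came to be tested. *H. carbonarium* relative to *H. flavolineatum* gave -0.49, with a 95% interval of -1.38 to 0.40.

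**Figure D3:**
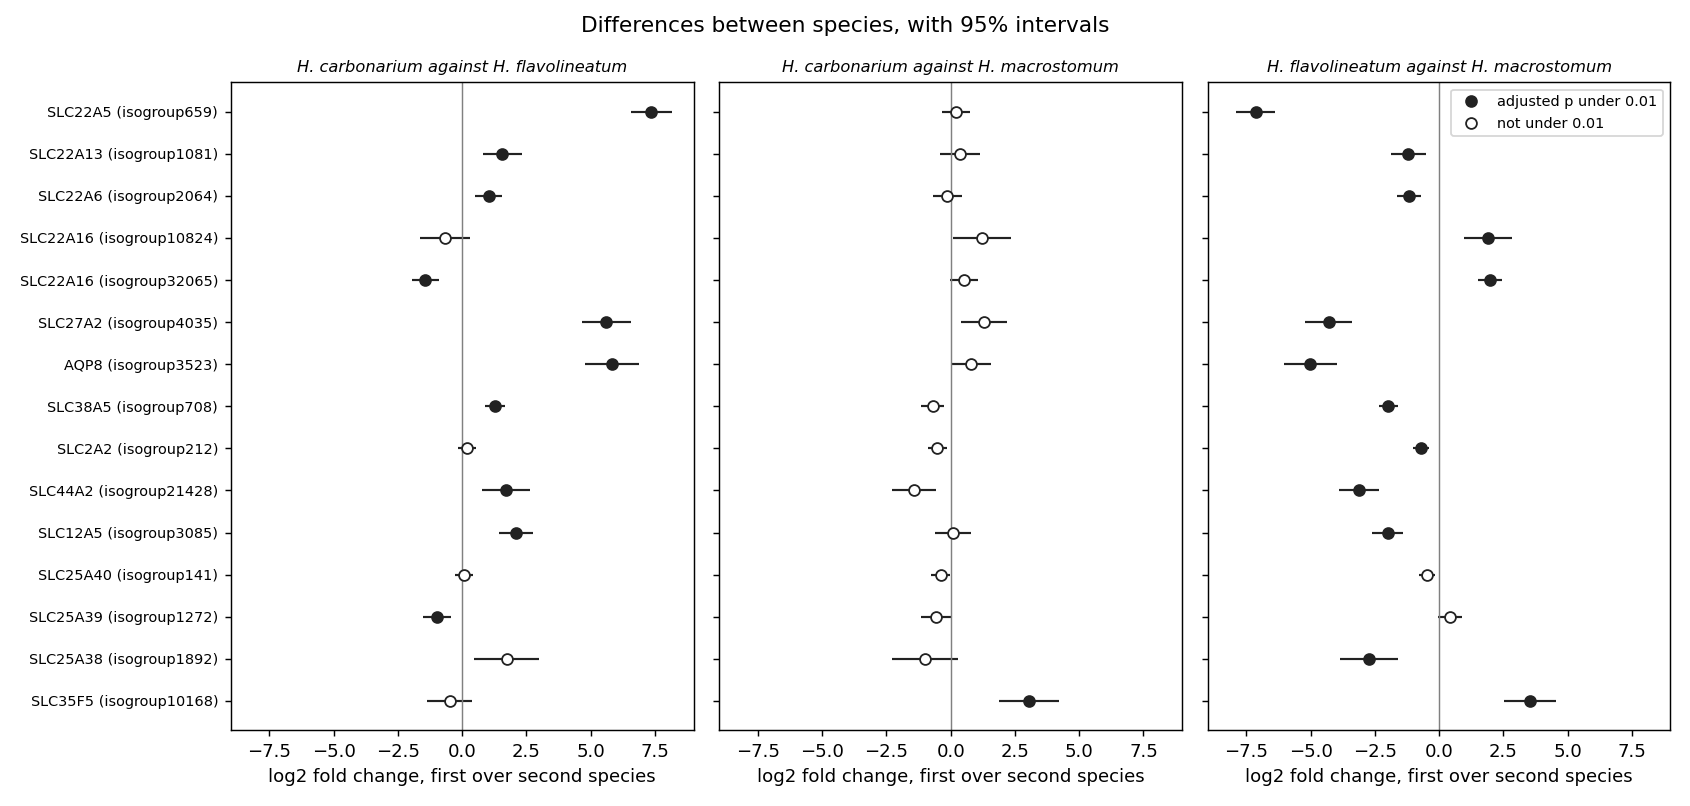
Log2 fold change of each of the 15 tested isogroups (horizontal axis, species named first over species named second) with its 95% interval, in 3 panels for the 3 comparisons. Filled points have an adjusted p under 0.01: 10 in *H. carbonarium* relative to *H. flavolineatum*, 1 in *H. carbonarium* relative to *H. macrostomum* and 13 in *H. flavolineatum* relative to *H. macrostomum*.

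Levels did not overlap between *H. carbonarium* and *H. flavolineatum* for 4 of the 15 isogroups (SLC22A5, SLC27A2, AQP8 isogroup3523 and SLC38A5), where 2.42% of all tested isogroups did not overlap. For *H. flavolineatum* relative to *H. macrostomum* the 4 were SLC22A5, SLC27A2, SLC38A5 and SLC35F5, where 3.54% of all did not overlap. Between *H. carbonarium* and *H. macrostomum* there were 0, where 3.59% of all did not overlap. All 15 are on the study's list, so these numbers too depend on how the isogroups were found and are not independent evidence. SLC22A5, SLC27A2, AQP8 isogroup3523 and SLC35F5 also passed the count filter only through the species where they are high.

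The 13 isogroups below the filter had 15 to 192 counts each over the 36 fish, and their tests come from a fit without the filter. In that fit 5 of the 13 were DEGs in *H. carbonarium* relative to *H. flavolineatum* (4.15% of all isogroups), 1 in *H. carbonarium* relative to *H. macrostomum* (4.29% of all) and 8 in *H. flavolineatum* relative to *H. macrostomum* (9.44% of all). The shares are over all 58532 isogroups, of which 36603 had at least 10 counts, as all 13 did. A share over those alone was not computed. Of the 13, at least 8 are on the study's list, so the numbers of DEGs too depend on how the isogroups were found. Among the carriers of amino acids and taurine, SLC38A4 was lower in *H. flavolineatum* in both comparisons and SLC6A6 in the one with *H. macrostomum*. SLC38A4 (isogroup27191), a sodium-coupled amino acid carrier typical of mammalian liver, had 41 counts in *H. carbonarium*, 16 counts in *H. flavolineatum* and 85 counts in *H. macrostomum*, with log2 fold changes of 2.35 (SE 0.56, edgeR adjusted p 0.00194) for *H. carbonarium* relative to *H. flavolineatum* and -2.75 (SE 0.50, adjusted p 1.15e-05) for *H. flavolineatum* relative to *H. macrostomum*. The taurine carrier SLC6A6 (isogroup21901) had 28, 22 and 83 counts in the species in the same order, with a log2 fold change of -2.07 (SE 0.44, edgeR adjusted p 2.14e-04) for *H. flavolineatum* relative to *H. macrostomum*. SLC43A1 (isogroup5689), a carrier of large neutral amino acids, had 51, 41 and 86 counts and no adjusted p under 0.01. However, isogroup4083 passed the filter and is named large neutral amino acids transporter small subunit 3, a name also used for SLC43A1. It was lower in *H. flavolineatum*, with a log2 fold change of 2.46 (SE 0.30, edgeR adjusted p 3.44e-08) for *H. carbonarium* relative to *H. flavolineatum*. For *H. flavolineatum* relative to *H. macrostomum* it was -1.75 (SE 0.29, adjusted p 5.59e-06).

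For vitamin C uptake, SLC23A2 (isogroup5073), a sodium-coupled ascorbate carrier, was found mostly in *H. macrostomum*. It had 6 counts in *H. carbonarium*, 4 counts in *H. flavolineatum* and 148 counts in *H. macrostomum*, where 10 of 11 fish had it, at up to 28.2 CPM in fish 6. That fish held 87 of the 148 counts, and 61 remained without it. The log2 fold change was -3.45 (SE 0.68, edgeR adjusted p 1.24e-04) for *H. carbonarium* relative to *H. macrostomum* and -4.77 (SE 0.59, adjusted p 1.40e-10) for *H. flavolineatum* relative to *H. macrostomum*. Without fish 6 both calls held, at -2.73 (SE 0.69, edgeR adjusted p 0.00431) and -4.04 (SE 0.61, adjusted p 6.84e-08). An isogroup of the anion exchangers, isogroup10707, named SLC26A6 in one annotation and prestin in the other, had 0 counts in *H. carbonarium*, 1 count in *H. flavolineatum* and 14 counts in *H. macrostomum*. *H. flavolineatum* relative to *H. macrostomum* passed the threshold, with a log2 fold change of -2.83 (SE 0.71, edgeR adjusted p 0.00183), while *H. carbonarium* relative to *H. macrostomum* did not (adjusted p 0.0104).

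SLC25A42 and SLC2A9 had their highest median level in *H. flavolineatum*, the species with the most fish. SLC25A42 (isogroup16977), a mitochondrial carrier of coenzyme A, had 31 counts in *H. carbonarium*, 138 counts in *H. flavolineatum* and 23 counts in *H. macrostomum*. It was detected in 7 of 8, 16 of 17 and 9 of 11 fish in that order. The log2 fold change was 2.10 (SE 0.45, edgeR adjusted p 2.20e-04) for *H. flavolineatum* relative to *H. macrostomum*. *H. carbonarium* relative to *H. flavolineatum* gave -1.07 (SE 0.47, edgeR adjusted p 0.175), which did not pass the threshold. SLC2A9 (isogroup20212), a urate carrier, had 2, 14 and 1 counts in the same order and no adjusted p under 0.01. Per total count of the species, its ratio for *H. flavolineatum* over *H. carbonarium* was 3.26 (exact 95% counting interval 0.75 to 29.5).

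SLC22A18 (isogroup1429) had 8 counts in *H. carbonarium*, 81 counts in *H. flavolineatum* and 52 counts in *H. macrostomum*, with a log2 fold change of -2.13 (SE 0.55, edgeR adjusted p 0.00562) for *H. carbonarium* relative to *H. flavolineatum*. The organic anion carrier SLCO2B1 (isogroup30309), with 21, 25 and 10 counts, and the mitochondrial pyrimidine nucleotide carrier SLC25A33 (isogroup44905), with 5, 14 and 22 counts, had no adjusted p under 0.01. That does not show that levels were alike. The other 13 isogroups with such a name had fewer than 10 counts or were not in the table.

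**Figure D4:**
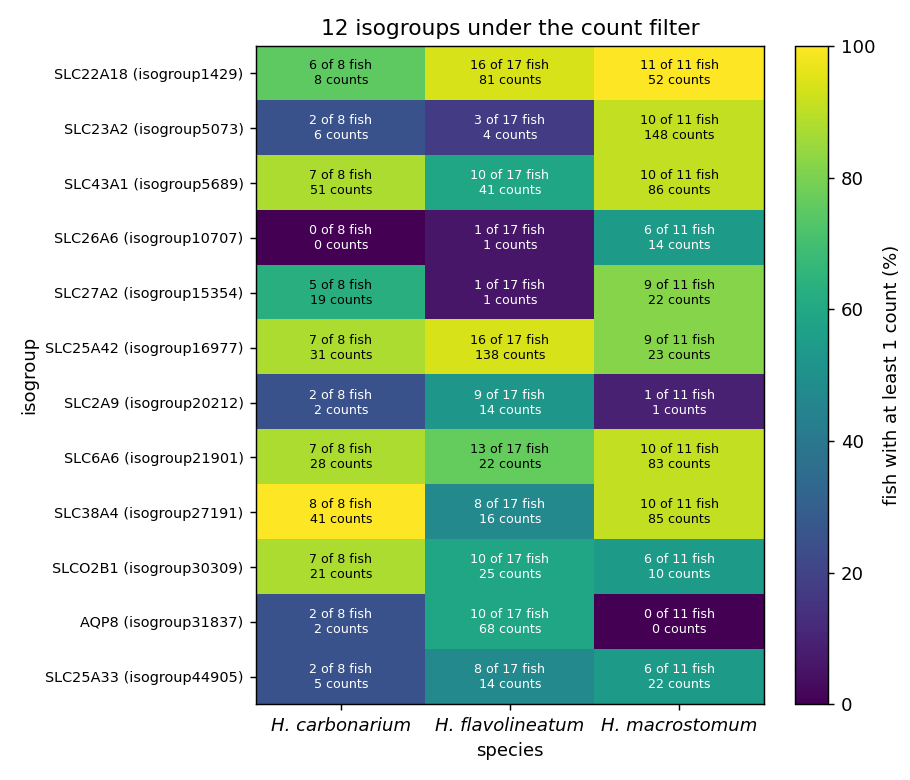
Share of fish with at least 1 count (colour, percent), with the number of fish and the counts written in each cell, for 12 of the 13 isogroups below the count filter (rows) in the 3 species (columns). SLC23A2 was found in 10 of 11 *H. macrostomum* but in 2 of 8 *H. carbonarium* and 3 of 17 *H. flavolineatum*, and AQP8 (isogroup31837) in 0 of 11 *H. macrostomum*.

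Other transporters, whose names lack the words solute carrier, aquaporin or glucose transporter although several are solute carriers by another name, were counted beside them. Of 57 such isogroups 20 were tested, 17 of them on the study's list, of which *H. carbonarium* had 6 higher (7.85% of all tested isogroups) and 1 lower (6.55%) relative to *H. flavolineatum*, and 3 higher (6.08%) and 4 lower (7.41%) relative to *H. macrostomum*. Relative to *H. macrostomum*, *H. flavolineatum* had 5 higher (11.6% of all) and 8 lower (14.4%). The smallest p values of the comparisons with *H. flavolineatum* included the zinc transporter ZIP9 (isogroup47529), at a median of 9.53 CPM in *H. carbonarium*, 2.04 CPM in *H. flavolineatum* and 14.5 CPM in *H. macrostomum*. The large neutral amino acids transporter small subunit 3 (isogroup4083) had medians of 14.7, 2.72 and 8.49 CPM in the species in the same order, and the ammonium transporter Rh type B-B (isogroup1764) had 25.5, 6.47 and 70.9 CPM. The organic solute transporter subunit alpha (isogroup517), which exports bile acids together with subunit beta, had medians of 227 CPM in *H. carbonarium*, 148 CPM in *H. flavolineatum* and 620 CPM in *H. macrostomum*. Among the other transporters named, it had the highest median in *H. carbonarium* and *H. macrostomum*, and subunit beta had it in *H. flavolineatum*. Subunit beta (isogroup1290) ran the other way between *H. flavolineatum* and *H. macrostomum*, with medians of 197 CPM in *H. carbonarium*, 326 CPM in *H. flavolineatum* and 177 CPM in *H. macrostomum* and a log2 fold change of 0.79 (SE 0.17, edgeR adjusted p 2.54e-04) for that pair. A phosphate transporter fragment (isogroup12400) had medians of 0.54, 1.30 and 11.6 CPM.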

How the data were processed

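TagSeq libraries of 36 wild grunts were analysed, with fish grouped by the organism in the labels. The authors removed low-quality reads and PCR duplicates, mapped reads with Bowtie2 to the *H. macrostomum* transcriptome, keeping several matches per read, and deposited raw counts for 58532 isogroups, without normalization. Isogroups that share sequence can therefore share reads. The versions of Bowtie2 and DESeq2 are not given in the sources used here. The study's list also holds fold changes and p-values of the authors' comparisons, which were not used. The annotation was at hand in part (2000 lines of each of its UniProt and TrEMBL tables).

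Counts were filtered with filterByExpr (minimum count 10, total 15, proportion 0.7, large group size 10), which left 8598 isogroups with 96.6% of the counts, scaled by TMM and fitted with edgeR 4.0.16 (quasi-likelihood, species as the only term, all fish) in R 4.3.3. P-values were adjusted by Benjamini-Hochberg over all 8598. SE is the log2 fold change divided by the square root of F, and 95% intervals are 1.96 SE. Counting intervals cover counting error only. No 2 libraries of a species agreed within sampling noise (lowest chi-square per degree of freedom 11.5). The test was also run on counts simulated from the fitted model, with differences put into *H. flavolineatum* only. Such counts cannot show whether the model fits these data, nor any effect of mapping.

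Every isogroup chosen by name was described by substrate class, with levels for each called one, except 1 below the filter that is not reported here. Of other transporters, at most the 2 with the smallest p of each comparison were named, and isogroup692, isogroup919 and isogroup1290 were added after their values were seen. The members and lists were chosen with earlier results of these data known. Alternatives were DESeq2 1.42.0 without a count filter, median-of-ratios scaling, no count filter, a threshold of 0.05 on the adjusted p, fits to the 2 species of a comparison alone, a replicate block by fish number, leaving out each fish in turn, summing isogroups of the same protein, and the *H. flavolineatum* with over 10000 CPM of vitellogenin left out. The study also left out *H. flavolineatum* with reproductive transcripts, but the limit used here is not its rule and the fish need not be the same. Leaving out a fish that held most of its species' counts of an isogroup below the filter was added after seeing the data. Python 3.11.15 with pandas 2.3.3 and matplotlib 3.10.9 served for tables and plots.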

Additional observations from a re-analysis of the deposited data

Results flagged for a closer look

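For 2 of the 15 tested isogroups, a single *H. carbonarium* stood far from the other 7 by Dixon's criterion, which chance meets in about 1 group in 20. SLC2A2 (isogroup212) was at 174 CPM in fish 8, with the next fish at 133 CPM, a gap of 0.80 of the whole range. SLC44A2 (isogroup21428) was at 13.02 CPM in fish 4, with the next at 6.28 CPM, a gap of 0.59 of the range. The critical value is 0.526. Species with more than 10 fish were not tested this way.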

How the results depend on the processing

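The 24 log2 fold changes that passed the threshold kept their sign under each alternative in which they were tested. DESeq2 without a count filter called 3 of 28 members between *H. carbonarium* and *H. macrostomum*, 21 between *H. flavolineatum* and *H. macrostomum* and 21 over the 3 species. No count filter in edgeR gave 2 (4.29% of all isogroups), 20 (9.44% of all) and 21 of 28, since members below the filter were then tested. An adjusted p under 0.05 gave 4 calls of 15 tested between *H. carbonarium* and *H. macrostomum*. With only the 2 species compared this count was 0 of 13 tested (4 at an unadjusted p under 0.05 in edgeR), because SLC35F5 no longer passed the filter. Such fits called 7 of 11 tested members for *H. carbonarium* against *H. flavolineatum*, where 974 of 7090 isogroups were called. For *H. flavolineatum* against *H. macrostomum* they called 9 of 11, where 1731 of 6914 were called. Only 16 of the 24 log2 fold changes were tested there. Those of AQP8 (isogroup3523) and SLC22A13 were not tested in either comparison with *H. flavolineatum*. Also not tested were SLC44A2 for *H. carbonarium* against *H. flavolineatum* and SLC35F5 for *H. carbonarium* against *H. macrostomum*. SLC25A38 and SLC22A16 (isogroup10824) were not tested for *H. flavolineatum* against *H. macrostomum*. The p-values of these calls over all fish therefore depend in part on how the isogroups came to be tested. With the fish number as a replicate block the counts were 6 for *H. carbonarium* against *H. flavolineatum* and 2 for *H. carbonarium* against *H. macrostomum*, and 6 of the 24 calls were lost, while the log2 fold changes of SLC22A5 became 8.37 and -8.14. The numbers do not pair the fish, since deviations of same-numbered fish had a median correlation of -0.03 over 25 pairs, with 1 pair over 0.1. Leaving out each fish gave 8 to 10 calls for *H. carbonarium* against *H. flavolineatum*, 1 to 2 for *H. carbonarium* against *H. macrostomum* (2 without *H. carbonarium* fish 4 or *H. macrostomum* fish 11), 11 to 14 for *H. flavolineatum* against *H. macrostomum* and 12 to 14 over the 3 species. Without the *H. flavolineatum* with vitellogenin the counts were 8, 1, 14 and 14. Shares over all isogroups are not given for DESeq2, the threshold of 0.05, the replicate block and the fits that left out fish. The counts of those settings can therefore not be set against a background. SLC25A39 lost its call under median-of-ratios scaling (adjusted p 0.0104), which turned the split of calls for *H. carbonarium* against *H. flavolineatum* to 8 higher and 1 lower, and without the count filter it (adjusted p 0.0300) and SLC2A2 (adjusted p 0.0151) lost theirs. Where counts are few, depth limits what could be seen, and sequence difference from the reference was not tested.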

Other observations

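Although the reference transcriptome was that of *H. macrostomum*, AQP8 (isogroup31837) had 0 counts in all 11 *H. macrostomum*. Of the 36603 isogroups with at least 10 counts, 642 (1.75%) had none in that species, 677 (1.85%) had none in the 17 *H. flavolineatum* and 1629 (4.45%) had none in the 8 *H. carbonarium*, where SLC26A6 (isogroup10707) was the only member with none.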
